A study of Mus musculus with 4 samples.

Results

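The genes of the cytoplasmic ribosomal proteins were followed through the cell classes of the mouse sciatic nerve. Members were taken by name: all symbols that begin with Rpl or Rps and go on with a number, with at most a short ending such as a, x, l or y, together with Rplp0, Rplp1, Rplp2 and Rpsa. Names with -ps, which mark pseudogene copies, were left out. The rule found 86 members among 22716 genes listed in 4 libraries, 35 of the small (40S) and 51 of the large (60S) subunit. All 86 were listed in all 4 libraries and none had fewer than 10 UMIs, the unique molecular identifiers that each stand for 1 captured mRNA molecule. RefSeq held 83 of the members as protein coding. The other 3, Rps3a2, Rps3a3 and Rps4y2 (a synonym of Rps4l), were entered there as pseudogenes.

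All cells came from wild-type CD1 mice and were profiled by Drop-seq, in which a bead with a barcode captures the 3' ends of the mRNAs of 1 cell. Each group had 1 library. The uninjured library was made from bilateral sciatic nerve segments of adult mice, and the 3 DPI library from the distal nerve of adult mice 3 days after a unilateral resection. The neonatal beads library was made from nerves at postnatal day 2 to 3 and the neonatal FACS library from nerves at postnatal day 3 to 4. All 4 preparations shared a digestion with collagenase and trypsin. Myelin was removed with magnetic beads from all except the neonatal FACS cells, which were instead sorted as nucleated (Hoechst-positive) and viable (propidium iodide-negative). Age and preparation therefore cannot be told apart between the neonatal libraries, nor age and injury between the neonatal and the 3 DPI library. With 1 library per group there was no replicate check of any difference, no test was made, and every interval covers counting error only. A statement that a value was higher or lower holds for these libraries.

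Ribosomes are the particles that make protein, and each joins a small subunit, which reads the mRNA, to a large subunit, which forms the peptide bonds. Most of their proteins are encoded by single active genes with many processed pseudogene copies in the genome, and the proteins are made in near-equal numbers. The mRNAs of ribosomal proteins and of several translation factors typically begin with a C followed by a stretch of pyrimidines, the 5' terminal oligopyrimidine (TOP) motif, through which growth signalling by mTORC1 and the protein LARP1 sets their translation and stability together. Growing and dividing cells are known to make many ribosomes, and mature, quiescent cells fewer.

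Start sites are shown for members that stood at an end of a comparison below and for a pair of paralogs with opposite levels. Each sequence is the 30 bases around a RefSeq start of the gene in GRCm38.p6, 15 before it and 15 from it on, 5' to 3' on the strand of the gene. Capitals mark a TOP-type start, which was a C at the annotated start with at least 4 bases of C or T after it, without a break. The Rps27l start shown lies downstream of the first base of its gene record, chr9:66944624. A further Rps27l start, with the window chr9:66946398-66946427, had no TOP-type start either.
Rpl35 (chr2:39005117-39005146, minus strand): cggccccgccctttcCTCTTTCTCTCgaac
Rpl15 (chr14:18270972-18271001, minus strand): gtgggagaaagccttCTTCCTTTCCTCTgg
Rps18 (chr17:33955651-33955680, minus strand): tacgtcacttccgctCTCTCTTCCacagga
Rps27 (chr3:90213634-90213663, minus strand): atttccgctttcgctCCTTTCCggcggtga
Rps27l (chr9:66946071-66946100, plus strand): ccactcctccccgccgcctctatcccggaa
Rpl22l1 (chr3:28805493-28805522, plus strand): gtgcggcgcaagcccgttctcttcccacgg
Rps7 (chr12:28635939-28635968, minus strand): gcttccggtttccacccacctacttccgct
Rpsa (chr9:120127751-120127780, plus strand): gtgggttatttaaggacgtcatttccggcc
Among the starts shown, the pyrimidine run was longest in Rpl15, with 13 bases, followed by Rpl35 with 11, Rps18 with 9 and Rps27 with 7. RefSeq start regions were at hand for 63 of the 86 members, and 13 of these (20.6%) had such a start, against 2.96% of 26951 other genes and 3.01% of all 27025. The 13 were Rpl14, Rpl15, Rpl28, Rpl35, Rpl35a, Rpl38, Rplp2, Rps10, Rps15a, Rps18, Rps21, Rps27 and Rps6. The search read only the annotated start itself, on the strand of the gene, so an annotated start a few bases away from the one used in the cell is read as having no motif. Rps7, Rps27l, Rpl22l1 and Rpsa, which had no TOP-type start, had pyrimidine stretches elsewhere in the same window.

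Members made up 4.57% of all UMIs in the uninjured library (206268 of 4513814), 6.88% in the 3 DPI library (558963 of 8123103), 7.64% in neonatal beads (583409 of 7634799) and 4.83% in neonatal FACS (246634 of 5110171). Members of the small subunit held 48.7%, 49.3%, 50.4% and 49.2% of the member UMIs in that order, so the balance of the subunits moved by little between libraries. After filtering, 1837 uninjured, 2162 3 DPI, 5420 neonatal beads and 2191 neonatal FACS barcodes remained, with a median of 1638, 1840, 1008.5 and 1575 UMIs. No pair of libraries shared more than 3 barcodes.

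A small number of members held most of these UMIs. Levels are given as CPM, a member's UMIs per 1000000 UMIs of the library or class, and are not divided by transcript length, since each molecule is tagged once at its 3' end. Rplp1, an acidic protein of the stalk of the large subunit that helps to recruit elongation factors, was at 2447 CPM in uninjured, 4190 in 3 DPI, 4239 in neonatal beads and 3020 in neonatal FACS. Rps14, of the platform of the small subunit, was at 2163, 2514, 3485 and 2030 CPM. Rpl41, the shortest ribosomal protein, was at 1772, 2607, 2713 and 1713 CPM. Rplp1 was thus lowest in uninjured, and Rps14 and Rpl41 were lowest in neonatal FACS. The 20 members with most UMIs held 62.6% of the member UMIs in uninjured, 62.0% in 3 DPI, 65.7% in neonatal beads and 67.6% in neonatal FACS. Across the 86 members the log2 CPM of any pair of libraries correlated with Pearson r from 0.93 to 0.99. This is a description over genes, which are not independent replicates and share library depth.

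Cells were grouped by clustering in which members, their pseudogene rows, mitochondrial and hemoglobin genes took no part, and clusters were named from marker genes as Schwann-like, endoneurial-like and so on. High shares of member UMIs were found in a neonatal Schwann-like cluster led by Cdkn1c and Pou3f1 (11.03% in neonatal beads, 303 cells) and in lymphoid-like cells at 3 DPI (10.99%, 64 cells). The lymphoid-like cluster as a whole, before single cells with at least 3 mast or 3 neutrophil markers were set apart from it, had 9.49% (74 cells). Among classes present in all 4 libraries, endothelial-like cells had the highest share in each, with 7.0% in uninjured, 9.72% in 3 DPI, 9.07% in neonatal beads and 7.21% in neonatal FACS. The lowest shares among classes of at least 50 cells were in the uninjured library, where perineurial-like cells had 2.43% (66 cells), Schwann-like cells 2.61% (355 cells) and endoneurial-like cells 2.87% (432 cells).

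In Schwann-like cells, the glia that wrap the axons, members held 2.61% of UMIs in uninjured (95% interval 2.57 to 2.66), 7.11% in 3 DPI (7.04 to 7.19, 146 cells), 8.10% in neonatal beads (8.08 to 8.13, 3698 cells) and 5.07% in neonatal FACS (5.05 to 5.10, 1224 cells). The quartiles of single uninjured Schwann-like cells were 1.64% and 3.04%, and those of the 3 DPI cells 4.39% and 8.72% and of the neonatal beads cells 5.90% and 9.60%. The middle of the uninjured cells therefore did not overlap that of either library. The myelinating-like and non-myelinating-like cells of the uninjured nerve had equal summed shares at this precision, 2.62% (2.52 to 2.71) and 2.61% (2.56 to 2.67). Their median cells differed, at 2.75% and 2.13%. In the neonatal FACS library the summed shares differed, with 3.92% in myelinating-like and 5.48% in non-myelinating-like cells. Dividing Schwann-like cells had 6.78% in neonatal beads and 4.8% in neonatal FACS, below the non-myelinating-like cells of the same libraries (8.17% and 5.48%).

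**Figure D1:**
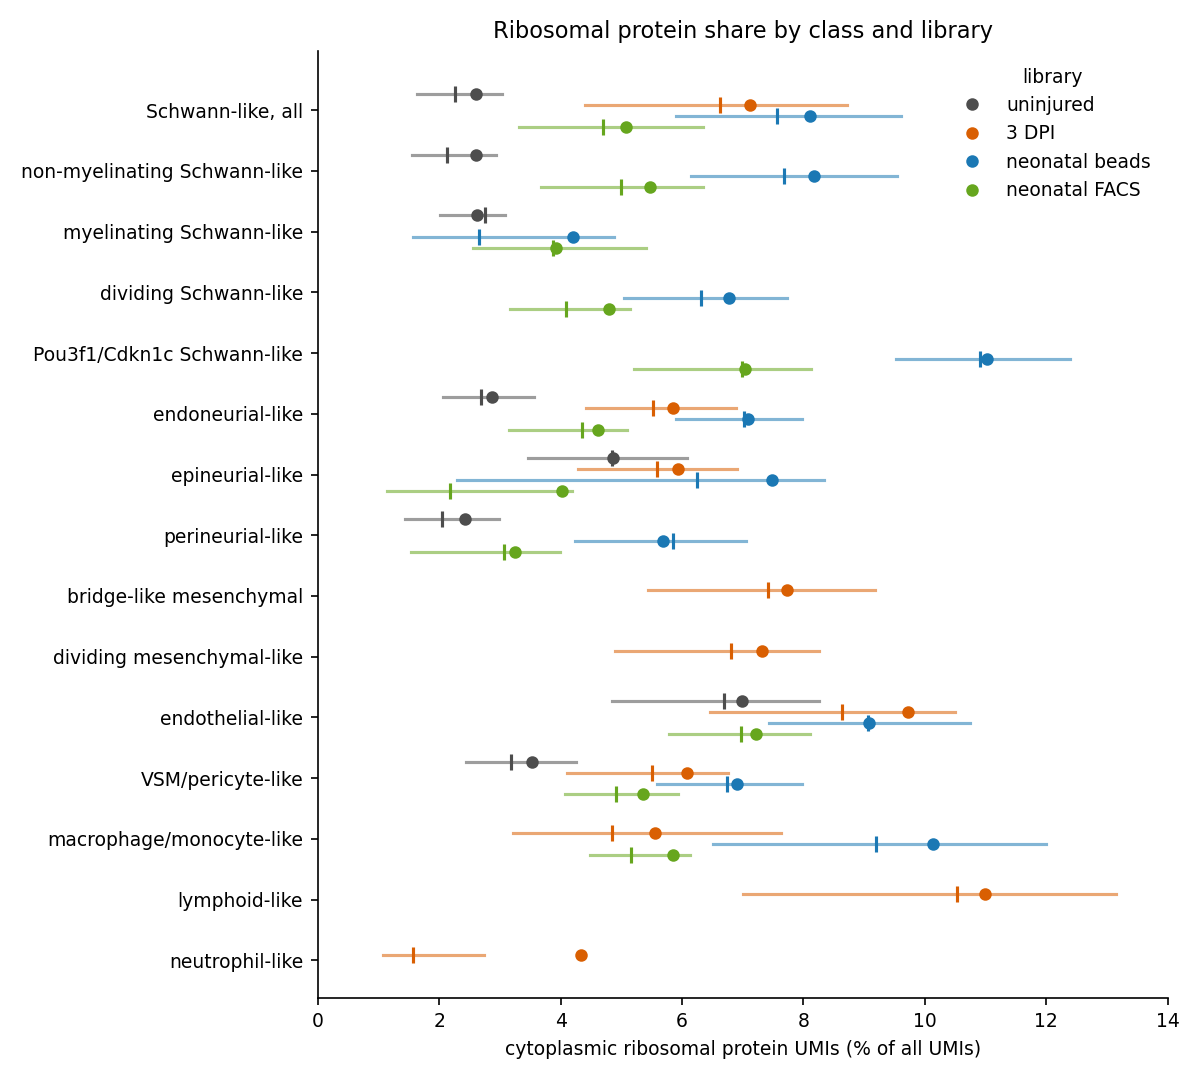
Share of cytoplasmic ribosomal protein UMIs (% of all UMIs, horizontal axis) by cell class and library. Circles are the share of the summed UMIs, ticks the median cell and lines the lower to upper quartile of cells. The uninjured Schwann-like, endoneurial-like and perineurial-like cells sit between 2.43% and 2.87%, and the endothelial-like cells lie to the right of them in every library.

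The mesenchymal classes spread widely. Epineurial-like cells, the fibroblasts of the outer sheath, had 4.87% in uninjured, 5.94% in 3 DPI, 7.48% in neonatal beads and 4.02% in neonatal FACS, and endoneurial-like cells, which lie between the axons, had 2.87%, 5.85%, 7.09% and 4.62%. By the mean over cells the order of these classes was the other way at 3 DPI, with 5.58% in epineurial-like and 5.73% in endoneurial-like cells, and in neonatal beads, with 6.03% and 6.74%. Bridge-like mesenchymal cells, found in the 3 DPI library only as a cluster led by H19, Postn and Dlk1, had 7.72% (322 cells), and dividing mesenchymal cells had 7.31% (154 cells). Neutrophil-like cells at 3 DPI had a summed share of 4.33% and a median cell of 1.58% (42 cells). This class includes single cells set apart from other clusters by at least 3 neutrophil markers. The neutrophil-like cluster with no cells set apart had a summed share of 1.60% (38 cells). Macrophage-like cells had 5.55% in 3 DPI and 5.84% in neonatal FACS, and the 10.1% in neonatal beads came from 24 cells. The neonatal macrophage-like cluster with no cells set apart had 6.84% in neonatal beads (39 cells) and 5.79% in FACS (78 cells).

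The 3 DPI library was compared with the uninjured library to see how members differed within classes after injury. Members took a larger share at 3 DPI in all 5 classes compared, with a ratio of 2.72 (95% interval 2.66 to 2.78) in Schwann-like, 2.03 (2.01 to 2.06) in endoneurial-like, 1.72 (1.68 to 1.77) in vascular smooth muscle and pericyte-like, 1.39 (1.38 to 1.40) in endothelial-like and 1.22 (1.21 to 1.23) in epineurial-like cells. In Schwann-like cells 72 of the 78 members at 20 CPM or more in either library were over 1.5-fold higher at 3 DPI and 0 were over 1.5-fold lower, where 32.3% of all 8252 genes were higher and 25.8% lower. Their median log2 ratio was 1.46, against 0.12 over all genes. In endoneurial-like cells 68 of 80 were higher and 3 lower, against 33% and 15.9% of all genes. In vascular smooth muscle and pericyte-like cells 54 of 80 were higher, with 33.5% of all genes, and 3 lower, with 23.4%. Endothelial-like cells had 31 of 82 higher, with 16.7% of all genes, and 3 lower, with 15%. Epineurial-like cells had 21 of 80 higher, with 20.5% of all genes, and 3 lower, with 9.68%. The median log2 ratio of members there was 0.25, against 0.13 over all genes. Members were thus most clearly set apart from other genes in Schwann-like and endoneurial-like cells and least in epineurial-like cells.

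The uninjured cells also stood apart in genes of the dissociation response, the immediate early and stress genes such as Fos and Jun that cells switch on during enzymatic digestion. This list of 13 genes held 4.99% of the UMIs of uninjured Schwann-like cells, against 0.735% in 3 DPI, 0.864% in neonatal beads and 0.189% in neonatal FACS. In endoneurial-like cells the same list held 4.33%, 0.944%, 0.810% and 0.347%, and in epineurial-like cells 1.07%, 0.510%, 0.189% and 0.0625%. With these genes taken out of the total, the ratio of the member share at 3 DPI to uninjured was 2.60 in Schwann-like and 1.96 in endoneurial-like cells. Mitochondrially encoded genes were lower at 3 DPI than in uninjured in all 5 classes in which the lists were compared, with ratios of 0.50 to 0.871, and genes of dividing cells were higher, with ratios of 3.28 to 68.7. The part of these lists in the other member differences was not tested.

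Single members were ranked by the mean over classes of their log2 CPM ratio, among the 82 with at least 100 UMIs in the libraries compared. For 3 DPI against uninjured this mean was above 0 in 77 members, and 56 were higher in each of the 5 classes. The median was 0.85 for the small and 0.68 for the large subunit. The largest ratio was that of Rps3a2, listed as a pseudogene of the small-subunit protein gene Rps3a, at 17.9 CPM in uninjured and 117 CPM in 3 DPI, with a mean log2 ratio of 3.06 over classes. Its uninjured Schwann-like cells held 2 UMIs against 60 at 3 DPI, a ratio of 26.7 with a counting interval from 6.53 to 109. Rps18, whose protein lies in the head of the small subunit, followed with 50.1 and 182 CPM and a mean log2 ratio of 2.31, from 1.41 in epineurial-like to 3.52 in Schwann-like cells. Rps18 had 8 UMIs in uninjured and 103 in 3 DPI Schwann-like cells. Rpsa, which encodes a small-subunit protein also known as the laminin receptor precursor, was at 316 and 957 CPM, with a mean log2 ratio of 1.79 and a range of 0.91 to 2.92. Rpl34 (297 and 729 CPM) and Rpl27 (25.3 and 51.8 CPM), both of the large subunit, followed with mean log2 ratios of 1.58 and 1.5. All 5 were higher in every class.

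At the other end, Rps27 was lower at 3 DPI in each of the 5 classes, with 39.0 CPM in uninjured, 25.7 in 3 DPI and a mean log2 ratio of -0.92. Rpl24 was also lower in all 5 classes, from 31.5 to 20.6 CPM, with a mean log2 ratio of -0.53. Both rested on few molecules, since Schwann-like cells held 7 and 3 UMIs of Rps27 and 13 and 11 of Rpl24 in the uninjured and 3 DPI libraries. Rpl36, at 274 and 193 CPM, had a mean log2 ratio of -0.31, and its classes ranged from -0.67 to 0.23. Rpl7l1 and Rpl36a had means of -0.33 and -0.19, with classes on either side of 0.

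**Figure D2:**
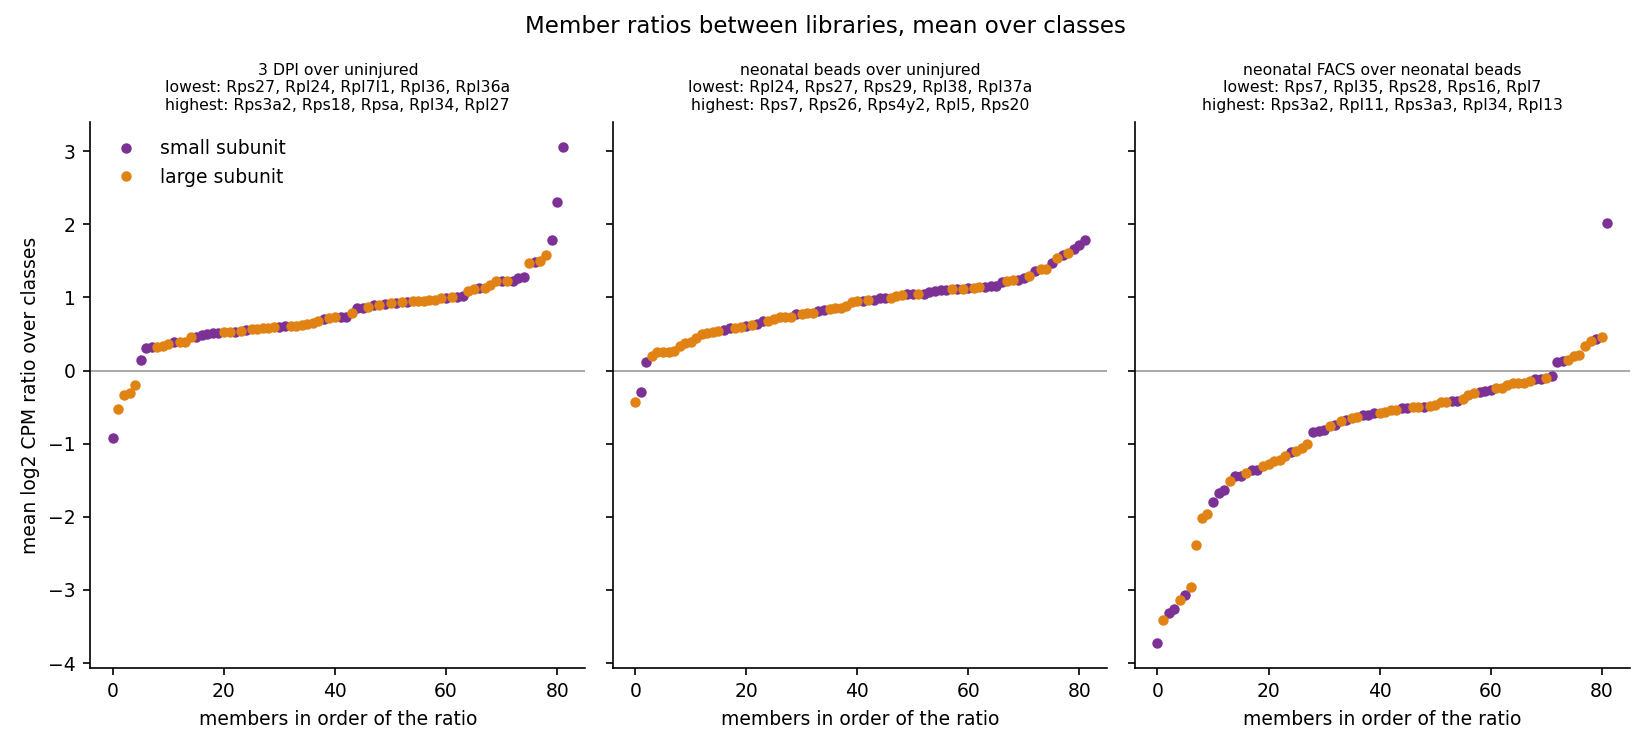
Mean over classes of the log2 CPM ratio (vertical axis) of each of 82 members, in order of the ratio (horizontal axis), for 3 comparisons of libraries. Points are coloured by subunit. In the left and middle panels 77 and 80 of the 82 points lie above 0, and in the right panel 72 lie below 0, with a tail of members reaching -3.73.

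The neonatal beads library was compared with the same uninjured library, to set developing against adult nerve cells with the same preparation. These ratios share the uninjured library with those above and are not independent of them. The member share was higher in all 8 classes compared, with a ratio of 3.10 (3.04 to 3.16) in Schwann-like, 3.13 in non-myelinating-like, 2.47 in endoneurial-like, 2.34 in perineurial-like, 1.96 in vascular smooth muscle and pericyte-like, 1.54 in epineurial-like and 1.30 in endothelial-like cells. Myelinating-like cells had a ratio of 1.61 in summed UMIs, but the ratio of their median cells was 0.964, and neonatal beads held only 31 of them. Of 81 members in Schwann-like cells 79 were over 1.5-fold higher and 0 lower, against 31.7% and 24.6% of all genes. In non-myelinating-like cells 77 of 80 were higher and 0 lower, against 30% and 24.9%. These were nearly all members measured in Schwann-like cells. Endoneurial-like cells had 71 of 79 higher and 1 lower (32.4% and 18.1% of all genes), and perineurial-like cells 62 of 78 higher and 3 lower (24.2% and 35.9%). Epineurial-like cells had 46 of 82 higher and 0 lower (37.2% and 19.5%). That count fell to 20 of 82 with median-of-ratios scaling, 22 of 81 without doublet removal and 17 of 81 with cells assigned by their own markers, against 24.3%, 27.9% and 30.5% of all genes. Vascular smooth muscle and pericyte-like cells had 53 of 78 higher and 2 lower (31.4% and 21.6%). Endothelial-like cells had 23 of 82 higher and 1 lower (23.1% and 17.8%).

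Over 6 classes 80 of 82 members had a mean log2 ratio above 0, and 56 were higher in every class, with a median of 1.08 for the small and 0.79 for the large subunit. Rps7, a small-subunit protein gene, led with 136 CPM in uninjured, 371 in neonatal beads and a mean log2 ratio of 1.78. Its ratios ran from 1.26 in endothelial-like to 2.68 in Schwann-like cells, so Rps7 was higher in every class. Rps26, which sits where mRNA leaves the small subunit, was at 1095 and 2932 CPM with a mean of 1.72, and Rps20 at 1294 and 2493 CPM with a mean of 1.57. Rpl5, which carries the 5S RNA into the large subunit together with Rpl11, was at 18.4 and 64.2 CPM with a mean of 1.61. Rpl5 in uninjured perineurial-like cells was 1 UMI. Rps4y2 followed the same pattern at 33.0 and 58.4 CPM, with a mean of 1.66 over a range from 0.46 to 3.22. The lowest were again Rpl24 and Rps27, with mean log2 ratios of -0.43 and -0.30 and classes on either side of 0, and Rps29, Rpl38 and Rpl37a had means of 0.12, 0.20 and 0.25.

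Set side by side, 3 DPI had a lower member share than neonatal beads in Schwann-like (ratio 0.878), endoneurial-like (0.825), epineurial-like (0.795), vascular smooth muscle and pericyte-like (0.881) and macrophage-like cells (0.548, with 24 neonatal beads cells). Endothelial-like cells were the exception, with 1.07 (1.06 to 1.08). In epineurial-like cells the ratio turned to 1.06 with cells assigned by their own markers. The mean over cells reversed the order in endothelial-like cells, with 8.40% in 3 DPI and 8.94% in neonatal beads.

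The neonatal libraries were compared with each other, and they differ in preparation and in age together. In neonatal FACS the member share was lower than in neonatal beads in all 11 classes and subclasses compared. The ratio was 0.538 in epineurial-like, 0.573 in perineurial-like, 0.577 in macrophage-like, 0.626 (0.622 to 0.630) in Schwann-like, 0.652 in endoneurial-like, 0.776 in vascular smooth muscle and pericyte-like and 0.795 in endothelial-like cells. Within Schwann-like cells it was 0.639 in the Cdkn1c and Pou3f1 cluster, 0.670 in non-myelinating-like, 0.709 in dividing and 0.931 in myelinating-like cells, where the ratio of the median cells was 1.46. The macrophage-like ratio rested on 24 neonatal beads cells. With no cells set apart, the macrophage-like cluster had 6.84% in neonatal beads and 5.79% in FACS, a smaller difference. Epineurial-like cells had a ratio of 0.348 by median cell. In the FACS epineurial-like cells the median share was 1.30% in cells under 500 UMIs, 1.23% at 500 to 1000 and 5.21% over 4000 UMIs. The epineurial-like cells of neonatal beads also rose with depth, from 2.45% under 500 to 7.28% at 1000 to 2000 UMIs.

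In Schwann-like cells 46 of 81 members were over 1.5-fold lower in FACS and 1 higher, against 11.2% and 8.88% of all genes. Endoneurial-like cells had 41 of 80 lower and 3 higher (16.5% and 16.1%), epineurial-like cells 61 of 82 lower and 1 higher (23.4% and 19.4%), and perineurial-like cells 50 of 78 lower and 2 higher (22.2% and 10.4%). In all of these classes the share of members that were lower was above the share of all genes. Non-myelinating-like cells had 34 of 80 lower and 1 higher (7.38% and 10.3%), dividing Schwann-like cells 34 of 81 lower and 4 higher (14.1% and 16.3%), and the Cdkn1c and Pou3f1 cluster 41 of 81 lower and 1 higher (16.1% and 21.9%). Endothelial-like cells had 28 of 82 lower and 7 higher (17.8% and 13.6%), and vascular smooth muscle and pericyte-like cells 28 of 77 lower and 4 higher (18.1% and 22.8%). The excess over all genes was smallest in these 2 vascular classes. The dissociation response was also lower in FACS, with 0.176% of all UMIs against 0.773%, and mitochondrially encoded genes were higher in all 7 classes in which the lists were compared, with a median ratio of 1.21. Cells led by Cyr61 and Fos formed a Schwann-like cluster with 968 neonatal beads and 17 FACS cells. In the Schwann-like cluster led by Ednrb and Sostdc1, which both libraries filled, members had 8.52% in neonatal beads (1637 cells) and 5.50% in FACS (492 cells).

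The members did not move together in this comparison. The mean log2 ratio over 6 classes had a median of -0.57 and was below 0 in 72 of 82 members, and 52 were lower in every class. Over these 82 members the standard deviation was 0.997, against 0.55 for 3 DPI over uninjured and 0.42 for neonatal beads over uninjured. The 7 members over 8-fold lower, a bound set after the values were seen, included Rps7, Rps13, Rps16 and Rps28 of the small and Rpl7 and Rpl35 of the large subunit. Rps7 was at 371 CPM in neonatal beads and 26.8 CPM in FACS, with a mean log2 ratio of -3.73 and a range from -4.36 to -2.74. In Schwann-like cells this was 1488 UMIs of 4049129 against 58 of 2154239.

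The other named members of this group showed the same drop. Rpl35, whose protein lies near the exit of the peptide tunnel, was at 333 and 37.2 CPM (mean -3.42), and Rps28 at 481 and 50.9 CPM (mean -3.32). Rps16 was at 426 and 46.0 CPM (mean -3.27), and Rpl7 at 692 and 73.6 CPM (mean -3.14). Rps13 was at 154 and 17.8 CPM. In the adult libraries Rps7 was at 136 CPM in both, Rps28 at 419 in uninjured and 670 in 3 DPI, and Rpl7 at 314 and 380 CPM. All of these levels were above those in FACS. Those of Rps7 and Rpl7 were below neonatal beads, and Rps28 was below it in uninjured and above it in 3 DPI. Without the 7 members the FACS to beads ratio of the share was 0.648 in Schwann-like and 0.674 in endoneurial-like cells, so the lower share was present without them.

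A few members went the other way. Rps3a2 was at 19.6 CPM in neonatal beads and 71.6 in FACS, with a mean log2 ratio of 2.01 and a higher level in each of the 6 classes. Rps3a3, also listed as a pseudogene, was at 865 and 1099 CPM (mean 0.43), Rpl34 at 425 and 557 CPM (mean 0.40) and Rpl13 at 867 and 1036 CPM (mean 0.33). The protein coding Rps3a1 was lower in FACS in each class, at 1318 and 511 CPM (mean -1.36). Of its 50-base stretches, 78.9% are shared with pseudogenes. Rpl11, which besides its place in the ribosome can bind the p53 regulator Mdm2, was at 244 and 326 CPM (mean 0.45) and was higher in Schwann-like cells with a ratio of 1.31 (1.19 to 1.44), but lower in epineurial-like cells with 0.685 (0.513 to 0.914).

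**Figure D3:**
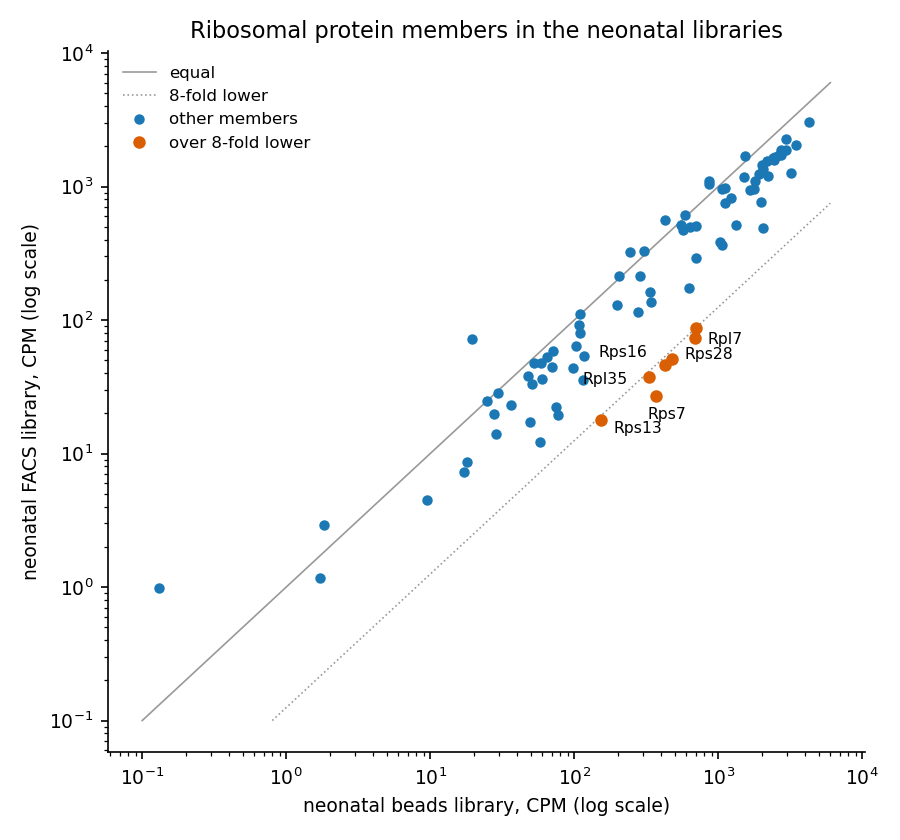
CPM of each member in the neonatal beads library (horizontal axis, log scale) and the neonatal FACS library (vertical axis, log scale). The solid line marks equal levels and the dotted line an 8-fold lower level in FACS. The 7 members in orange lie beyond the dotted line, among them Rps13 with 154 and 17.8 CPM and Rpl7 with 692 and 73.6 CPM, and most other points lie just below the line of equal levels.

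Within a library the make-up of the member UMIs was alike between classes for most genes. For the 73 members with at least 1000 UMIs the median over genes of the standard deviation, between classes, of the log2 percent of member UMIs was 0.21. The largest values belonged to Rps4y2 (1.06), Rpl5 (0.68), Rpl27 (0.57), Rps27l (0.56), Rpl22l1 (0.53), Rpl7l1 (0.52), Rps3a2 (0.46) and Rpl15 (0.46). Of these, Rps27l and Rpl22l1 had enough UMIs in each class to describe.

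Rps27l, a paralog of Rps27 that is known as a p53 target, was highest in dividing Schwann-like cells, with 1.86% of member UMIs in FACS and 1.18% in neonatal beads. In non-myelinating-like cells it held 1.22% in uninjured, 1.02% in neonatal beads and 1.48% in FACS, and in 3 DPI Schwann-like cells 1.06%. Endothelial-like cells had 0.408% in uninjured, 0.404% in 3 DPI, 0.476% in neonatal beads and 0.567% in FACS, and 3 DPI lymphoid-like cells had 0.184% (0.0951 to 0.321). The order of Schwann-like above endothelial-like cells held in each library for Rps27l. Rpl22l1, a paralog of the RNA-binding protein gene Rpl22, was highest in endoneurial-like cells of each library, with 1.92% in uninjured, 1.36% in 3 DPI, 1.18% in neonatal beads and 1.57% in FACS. Endothelial-like cells had 0.472%, 0.484%, 0.568% and 0.742% in the same order, each below the endoneurial-like cells of the same library. Macrophage-like cells at 3 DPI had the lowest Rpl22l1 share, 0.368%.

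The other variable members rested on small counts. Rps4y2 ranged from 0 of 6521 member UMIs in 3 DPI lymphoid-like cells, which allows up to 0.0566% by the exact 95% interval, to 0.224% in FACS epineurial-like cells. Rpl7l1 ranged from 5 UMIs (0.0349%) in 3 DPI vascular smooth muscle and pericyte-like cells to 16 UMIs (0.492%) in uninjured perineurial-like cells. Among abundant members Rplp1 differed between classes in the same direction in each library, with 5.78%, 7.49%, 8.41% and 9.19% of member UMIs in endoneurial-like and 4.95%, 4.46%, 4.43% and 4.97% in endothelial-like cells of the uninjured, 3 DPI, neonatal beads and FACS libraries.

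Paralogs of ribosomal proteins were compared with their partners by UMIs. Rps27l held 86.6% of the UMIs of Rps27 and Rps27l in uninjured, 94.2% in 3 DPI, 95.8% in neonatal beads and 96.2% in FACS. The paralog was thus the more counted gene throughout. This holds for counts only, since more of the Rps27 than of the Rps27l sequence is shared with pseudogenes, as given below. Rpl22l1 held 30.8%, 28.8%, 33.3% and 34.6% of the UMIs of its pair with Rpl22. Rpl7l1 held 18.4%, 18% and 13.4% of its pair with Rpl7 in uninjured, 3 DPI and neonatal beads and 55.4% in FACS, where Rpl7 was low while Rpl7l1 was at 91.4 CPM against 107 in neonatal beads. The paralogs known for expression in testis or muscle were scarce. Rpl39l had 4, 48, 13 and 6 UMIs, Rpl10l 6, 65, 14 and 15, and Rpl3l, a gene of heart and skeletal muscle, 1, 4, 1 and 5 in the uninjured, 3 DPI, neonatal beads and FACS libraries.

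Pseudogene copies bear on these levels, since a read that matches a gene and a copy equally well cannot be placed, and the sources at hand do not say how the authors counted such reads. The last 300 coding bases of each member were cut into stretches of 50 bases and looked up in the annotated pseudogenes. In 37 of the 83 members with a coding sequence every stretch was also in a pseudogene, and the median level of these was 64.5 CPM in uninjured, 89.6 in 3 DPI, 110 in neonatal beads and 46.0 in FACS. The 46 with fewer shared stretches had medians of 895, 1281, 1275 and 793 CPM. Spearman's rho between the share of such stretches and the log2 CPM was -0.50 in each library over 83 members, while Pearson's r ran from -0.24 to -0.13. The levels of Rps27 (86.7% of stretches shared), Rpl24, Rpl5, Rpl27 and Rpsa (100%) are therefore uncertain as levels of those genes. The same holds for members named above as low in FACS, which are Rps7, Rps13, Rps16, Rps28 and Rpl7 (100%) and Rpl35 (75.3%). In the paralog pairs, Rps27l (48.3%) had a smaller share of such stretches than Rps27, and Rpl7l1 (36.3%) a smaller share than Rpl7. Rpl22l1 (78.1%) had a larger share than Rpl22. The UMI percentages of these pairs are therefore uncertain as proportions of their mRNAs. For the ratios between libraries rho was -0.04 at 3 DPI over uninjured, -0.21 for neonatal beads over uninjured and -0.14 for FACS over beads. Their r was 0.02, -0.18 and -0.18 in that order, over 79 members. By rho the ratios were less related to the shared stretches than the levels were. By r the values of -0.18 lay within the range of the levels. Coding length had r of 0.11, 0.18 and 0.05 with the same ratios.

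**Figure D4:**
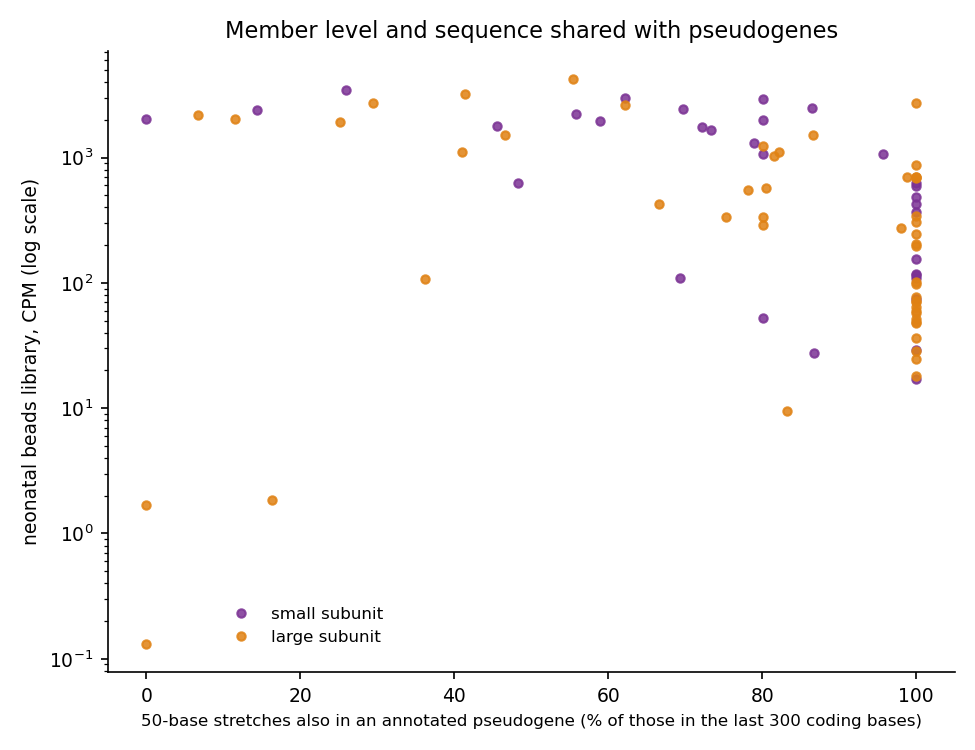
Share of the 50-base stretches in the last 300 coding bases of each member that also occur in an annotated pseudogene (horizontal axis, %) and the level of that member in the neonatal beads library (vertical axis, CPM on a log scale), coloured by subunit. Members at 100% ran from 17.2 to 2713 CPM, with a median of 110 CPM over 37 members, against 1275 CPM over the other 46.

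The 25 rows named as pseudogenes (-ps), which the rule left out, gave the reverse picture in FACS. They held 0.170% of UMIs in uninjured, 0.525% in 3 DPI, 0.259% in neonatal beads and 0.522% in FACS, which is 3.72%, 7.63%, 3.38% and 10.8% of the member UMIs. Rps26-ps1 was at 392, 1020, 948 and 1086 CPM, Rps10-ps1 at 334, 929, 530 and 1177, Rpsa-ps10 at 199, 943, 222 and 898 and Rpl9-ps6 at 126, 460, 135 and 847 CPM. These rows were higher in FACS than in neonatal beads in all 7 classes, by 1.65 to 2.76 times, while members were lower. With these rows added to the members, the FACS to beads ratio was 0.673 in Schwann-like and 0.696 in endoneurial-like cells, still below 1. Only rows named -ps were added, so any reads on pseudogenes under other names are not covered by these ratios.

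Other genes of the translation machinery were read from fixed lists. The 4 ribosomal protein genes outside the rule had ratios of 1.26 to 2.82 at 3 DPI over uninjured, 1.48 to 3.27 in neonatal beads over uninjured and 0.436 to 0.724 in FACS over beads. The most counted of them was Gnb2l1, which encodes the RACK1 scaffold protein of the small subunit, at 779, 1511, 1642 and 1148 CPM. The 16 translation factors and others with TOP mRNAs had ratios of 1.38 to 2.49, 1.42 to 2.42 and 0.541 to 0.799 in the same comparisons. Both lists therefore lay on the same side of 1 as the members in every class. Eef1a1, which brings aminoacyl-tRNA to the ribosome, was at 1244, 1403, 2265 and 657 CPM, Eef1b2, its exchange factor, at 473, 1414, 1014 and 771, and Pabpc1, which binds poly(A) tails, at 1270, 3093, 1671 and 1508 CPM.

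Lists further from the mature ribosome were read in the same way. The 30 ribosome biogenesis genes, which act in the nucleolus, had ratios of 1.14 to 2.23 at 3 DPI and 1.27 to 2.36 in neonatal beads over uninjured, but in FACS over beads their ratios of 0.713 to 1.13 had 3 of 7 classes above 1. Npm1, a nucleolar chaperone of that list, was at 248, 697, 653 and 371 CPM. The 76 mitochondrial ribosomal protein genes had ratios of 1.05 to 1.5, 1.15 to 1.75 and 0.728 to 1.03. The 14 growth control genes, which include parts of the mTORC1 pathway, had ratios on either side of 1 in both comparisons with uninjured, 0.746 to 1.42 and 0.796 to 1.42. The 3 nuclear-retained and long RNAs fell on the opposite side, with 0.364 to 0.959 at 3 DPI and 0.229 to 0.709 in neonatal beads over uninjured. These shares are parts of 1 total, so a larger share of one list leaves less for the others.

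**Figure D5:**
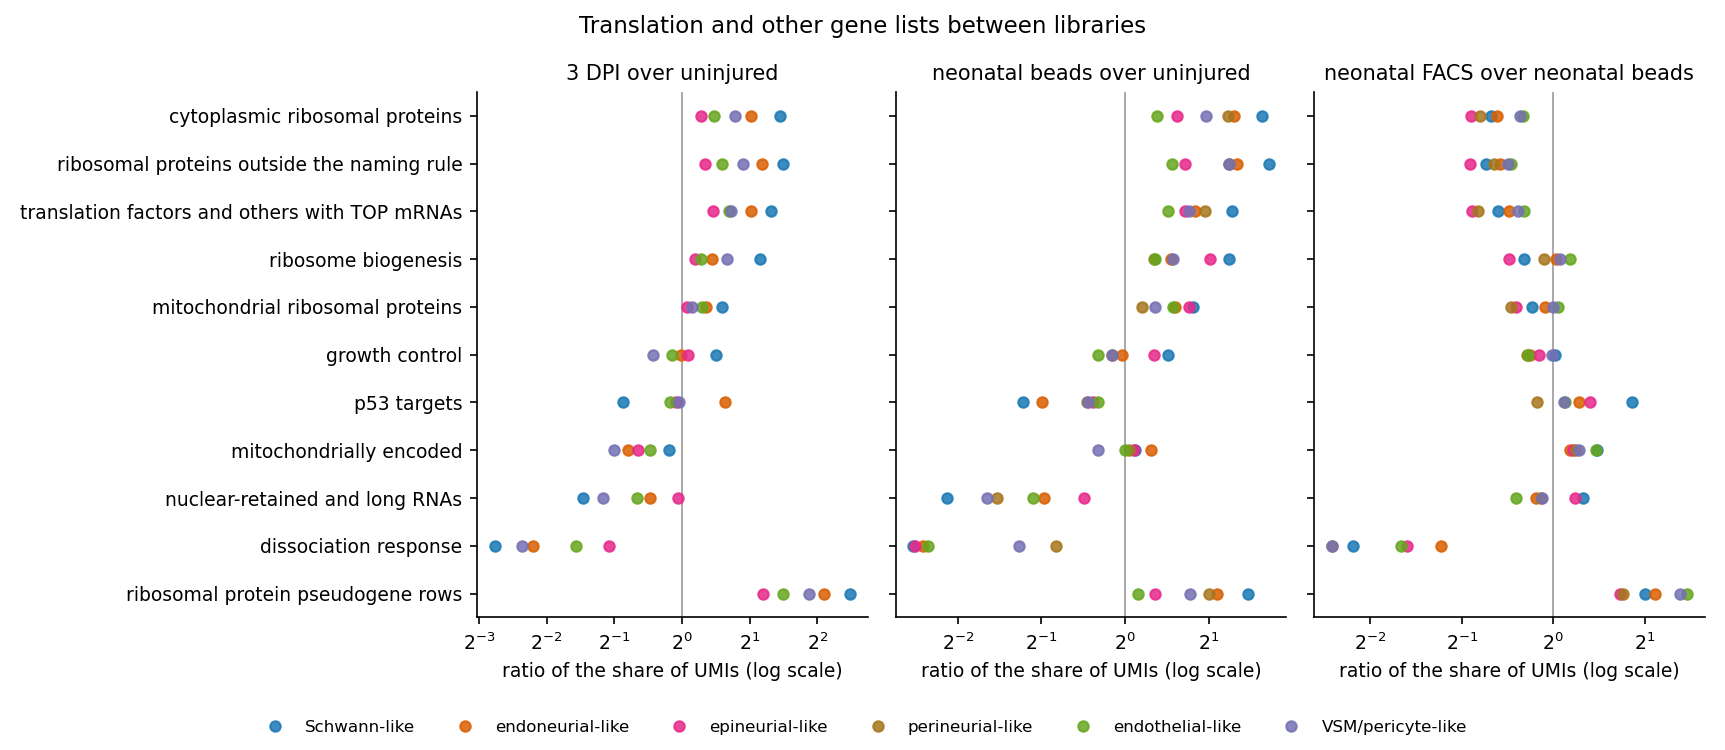
Ratio of the share of UMIs of 11 gene lists (rows) between libraries (horizontal axis, log scale), with 1 point per cell class. The members, the ribosomal proteins outside the rule and the translation factors lie to the right of 1 in the 2 comparisons with uninjured and to the left of 1 in FACS over beads, and the dissociation response lies between 0.147 and 0.566 in every class.

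Cells in division did not have a uniformly larger share. Cells with a UMI of Top2a or Mki67, genes of the dividing cell, had 6.84% member UMIs in neonatal beads Schwann-like cells (572 cells) against 8.48% in the others (3126 cells). In neonatal FACS Schwann-like cells the values were 4.82% (130 cells) and 5.12% (1094 cells), and at 3 DPI 6.92% (40 cells) and 7.28% (106 cells), where the median cells were the other way, at 6.77% and 6.49%. Endothelial-like cells at 3 DPI went the other way, with 10.6% in cells with such a UMI (37 cells) and 9.14% in the others (199 cells). Cells with such a UMI were deeper, with a median of 3645.5 against 1677.5 UMIs in 3 DPI Schwann-like cells, and the part of depth in these differences was not tested. Within uninjured Schwann-like cells the median share was 2.22%, 2.31% and 2.55% in 3 bins of rising depth, all below the lowest bin of the 3 DPI Schwann-like cells, 4.94%. Barcodes removed for few genes had low shares, 0.279% in uninjured, 0.992% in 3 DPI, 2.14% in neonatal beads and 3.39% in FACS.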

How the data were processed

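The authors sequenced 4 Drop-seq libraries of mouse sciatic nerve cells, 1 per group, followed the alignment cookbook for Drop-seq to build matrices of genes by barcodes, and deposited raw UMI counts. The submitters' processing notes name mm10. The sources used here do not name the aligner or the annotation. No columns other than these counts were used.

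Barcodes with fewer than 200 genes, over 10% mitochondrial or over 5% hemoglobin UMIs were removed, then the 5% of each library with the highest doublet score, the share of simulated doublets among a barcode's neighbours. Cells were normalised with scran 1.30.0 and clustered with Seurat 5.3.0 in R 4.3.3, the uninjured, the 3 DPI and both neonatal libraries each as a set, from 20 principal components of 2000 variable genes at a resolution of 0.4. Clusters were named from marker lists where at least 3 markers were found, and single cells with at least 3 mast or 3 neutrophil markers were set apart from their clusters. The myelinating-like neonatal class held 31 neonatal beads cells, the macrophage-like class 24.

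UMIs were summed per class and library with Python 3.11.15 (numpy 2.4.6, scipy 1.17.1, pandas 2.3.3). Shares have exact Clopper-Pearson 95% intervals and ratios log-binomial ones, which cover counting error only. Classes needed 20 cells in both libraries for a share ratio and 50 for single members. Genes at 20 CPM in either library were counted past 1.5-fold, and a count of 0 was set to 3 UMIs in a log2 ratio. Of these steps, the fold counts, in Schwann-like and endoneurial-like cells, and the share intervals were tested on simulated data.

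Members and lists were chosen with earlier results of these data known. The text names, in each comparison, the 5 members with the highest and the 5 with the lowest mean log2 ratio over classes (at least 100 UMIs), the 8 most variable between classes (at least 1000 UMIs), the most counted members, the paralogs, and the most counted genes of other lists. The group over 8-fold lower was picked after its values were seen, and not all of its members are reported here. Sequences and start sites are from RefSeq (GRCm38.p6), coding sequences and pseudogenes from the GENCODE annotation given. Alternatives are listed in the closing section. Protein sequences were not used here.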

Additional observations from a re-analysis of the deposited data

Results flagged for a closer look

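The rows named as ribosomal protein pseudogenes, which belong to no comparison of members, held more UMIs in the other 3 libraries than in the uninjured library. Their share of all UMIs was 0.170% in uninjured, 0.525% in 3 DPI, 0.259% in neonatal beads and 0.522% in neonatal FACS.

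The member share at 3 DPI was 1.07 times that of neonatal beads in endothelial-like cells, while the other 5 classes had ratios below 1. The difference between the classes was not tested, since each group has 1 library.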

How the results depend on the processing

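No paired analysis was possible because each group has 1 library, and no replicate could be left out. All alternatives kept the direction of the Schwann-like and endoneurial-like ratios. In what follows ratios are given for Schwann-like and then endoneurial-like cells where both moved by more than their counting interval, and the causes were not tested. For 3 DPI over uninjured (2.72 and 2.03) the values were 2.62 in Schwann-like cells with at least 500 genes, 1.90 in endoneurial-like cells thinned to 500 UMIs, 2.08 there at a resolution of 0.8 and also with at most 5% mitochondrial UMIs, 2.51 and 1.76 without the 50 most counted other genes, 2.60 and 1.96 without the dissociation response, 2.61 and 2.23 with cells assigned by their own markers, 2.81 and 1.96 by the mean over cells, 2.83 and 2.11 with pseudogene rows, and 2.64 and 2.09 without doublet removal. For neonatal beads over uninjured (3.10 and 2.47) they were 3.20 and 2.36 thinned, 2.50 in endoneurial-like cells at a resolution of 0.8, 2.94 and 2.15 without the 50 genes, 2.97 and 2.38 without the dissociation response, 2.53 in endoneurial-like cells by own markers, 2.30 there by the mean over cells, 3.19 and 2.51 for members with a stretch in no pseudogene, 2.52 in endoneurial-like cells with at most 5% mitochondrial UMIs, and 3.01 and 2.52 without doublet removal. For FACS over beads (0.626 and 0.652) they were 0.639 and 0.586 thinned, 0.661 and 0.665 without the 50 genes, 0.641 and 0.592 by the mean over cells, 0.673 and 0.696 with pseudogene rows, and 0.648 and 0.674 without the 7 lowest members. In Schwann-like cells alone this ratio was 0.618 with at least 500 genes, 0.631 without mitochondrial genes in the total and also without doublet removal, 0.622 without the dissociation response, 0.604 by own markers, 0.632 with at most 5% mitochondrial UMIs and 0.616 without the Cyr61 and Fos cluster. At a fold of 2 in place of 1.5, 41 of 80 endoneurial-like members were higher at 3 DPI, against 17.1% of all genes. In FACS 27 of 81 Schwann-like and 24 of 80 endoneurial-like members were lower, against 2.74% and 7.11% of all genes. The alternatives without the dissociation response, without the 7 members, without the Cyr61 cluster and with members by pseudogene sharing were chosen after seeing the data.

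Of the other ratios, 3 DPI over neonatal beads reached 1.06 in epineurial-like cells by own markers and fell to 0.940 in endothelial-like cells, and FACS over beads reached 1.38 in myelinating-like cells. Of the recounts of members past the fold, 66 moved by over 1.5 times and 262 did not. Beside those above, members higher in epineurial-like cells of neonatal beads (46 of 82) numbered 15 at a fold of 2 (20.6% of all genes). Those higher in epineurial-like cells at 3 DPI (21 of 80) numbered 37 by own markers (28.3% of all genes) and 7 at a fold of 2 (7.80%). They numbered 14 with at least 500 genes (19.2% of all genes) and also with median-of-ratios scaling (15.6%). At that fold the members higher in vascular smooth muscle and pericyte-like cells fell from 54 to 19 of 80 at 3 DPI and from 53 to 29 of 78 in neonatal beads, and in endothelial-like cells from 31 to 11 and from 23 to 3 (15 with median-of-ratios scaling). Members lower in FACS fell from 61 to 37 of 82 in epineurial-like cells at a fold of 2 (11.6% of all genes). In non-myelinating-like cells they rose from 34 to 55 of 80 when members could be variable genes (16.2% of all genes). Few UMIs limit the ratios of members below about 20 CPM.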
